A study of Mus musculus with 44 samples.

Results

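Cytosolic ribosomal protein genes encode the proteins of the ribosomes that translate nuclear messages. In a hippocampal RNA-seq table of 13218 assembled loci, 72 loci carry such a gene as their only gene name. The rule that picks them reads gene names and no values: Rpl or Rps with a number and an optional letter, or Rplp0, Rplp1, Rplp2 or Rpsa, with small RNA names in the same field passed over. Pseudogenes, Rps6 kinases and paralogs with an l after the number were left out, and 1 further match, Rpl32p, was left out because RefSeq annotates it as a pseudogene. The 72 loci hold 67 symbols, of which 40 belong to the large subunit and 27 to the small one, so 67 of the 77 mouse genes of the set are represented. The other 10, among them Rps7, Rpl23, Rpl3, Rpl13a, Rps3a1, Rpl8, Rps12, Rpl36 and Rpl18, stand in loci that also name other genes or have a name outside the rule. RNA came from C57BL/6J mice, 1 library per mouse, in 6 groups named by age in months and diet. At 5 months 7 mice were labelled 5M-MR and 6 were 5M-CD, at 15 months 8 were 15M-MR and 8 were 15M-CD, and at 18 months 7 were 18M-MR and 8 were 18M-CD. MR is read as the methionine restriction of the study's title, a diet low in an essential amino acid, and CD as its control diet. Neither the length of the diet nor the sex of the mice is given in the labels.

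Ribosomal proteins are made in near-equal amounts from dispersed single-copy genes, and their messages are among the most abundant of any cell. Most of these messages begin with a C followed by a run of pyrimidines, the 5′ terminal oligopyrimidine (TOP) stretch, through which the kinase complex mTORC1, a sensor of amino acids, governs their translation by way of the repressor Larp1. That control acts on translation more than on RNA level, and RNA-seq reads only the RNA. In neurons ribosomal protein messages also travel into axons and dendrites.

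The starts of several of these genes are shown because of letters that 10 of 13 matched members past both age tests on MR hold in their promoters. That count takes either strand and a window wider than the lines printed here. Whether the share differs from that of other members was not tested. RefSeq promoters of build GRCm38.p6 were found for 51 of the 67 symbols, each with 250 bases before and 50 after the annotated start. In the first set, all from members that passed the test for age in both MR comparisons described below, capitals mark CCGGAAG, letters known as a core of sites for ETS factors such as the GABP complex. Each line has 60 bases, 40 before the start and 20 from it on, read 5′ to 3′ on the gene's strand. Over the same 60 bases Rpl6 and Rps10 also hold CCGGAAG, and Rpl19 and Rpl34 hold it on the other strand. None of these other genes passed in both comparisons.
Rpl11 (chr4:136053374-136053433, minus strand): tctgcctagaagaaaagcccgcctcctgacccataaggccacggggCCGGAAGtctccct
Rpl26 (chr11:68901526-68901585, plus strand): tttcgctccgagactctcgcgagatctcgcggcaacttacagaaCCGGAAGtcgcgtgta
Rpl31 (chr1:39367811-39367870, plus strand): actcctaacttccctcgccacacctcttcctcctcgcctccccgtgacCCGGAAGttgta
Rpl37 (chr15:5116573-5116632, plus strand): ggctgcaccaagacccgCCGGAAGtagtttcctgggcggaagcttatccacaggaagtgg
Rpl38 (chr11:114668540-114668599, plus strand): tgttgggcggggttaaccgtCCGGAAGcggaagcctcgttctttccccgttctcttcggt
Rps21 (chr2:180257339-180257398, plus strand): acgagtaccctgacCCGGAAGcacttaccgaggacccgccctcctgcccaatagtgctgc

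The second set shows pyrimidine runs near the start, with the unbroken run of C and T that begins with a C within 10 bases of the annotated start in capitals. In these 3 genes the run begins a few bases before the annotated start, so it is not shown to be the first bases of the message. Rpl27a and Rpl35 passed the test in both MR comparisons, and Rps6, the substrate of the S6 kinases, did not.
Rpl27a (chr7:109519155-109519214, plus strand): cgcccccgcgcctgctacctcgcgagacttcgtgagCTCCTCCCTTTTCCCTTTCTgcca
Rpl35 (chr2:39005112-39005171, minus strand): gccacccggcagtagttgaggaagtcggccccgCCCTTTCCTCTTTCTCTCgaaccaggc
Rps6 (chr4:86857348-86857407, minus strand): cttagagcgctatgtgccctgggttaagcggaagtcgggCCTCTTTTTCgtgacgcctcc

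Letters were searched on both strands of these windows, and a gene was counted when any of its promoters held them. CCGGAAG was found in 22 of the 51 matched members (43.1%), against 9.93% of the 27025 genes in the promoter table. Those genes, the background for every share below, were not limited to genes expressed here. Among the 18 members past the test in both MR comparisons, 13 had a promoter in the table and 10 of these held CCGGAAG (76.9%), against 12 of the 38 other matched members (31.6%). The letters shown were picked for this share in these same data, and the members called change with the fit. The contrast therefore describes these calls and is no evidence of enrichment. A C with 4 pyrimidines after it stood exactly at the annotated start in 13 of 51 members (25.5%), against 3.01% of all genes, and began within 10 bases of it in 30 of 51 (58.8%), against 34.4%. GGGCGG, the core of Sp1 sites, was found in 60.8% of members and 38.2% of all genes. TATAAA was found in 11.8% of members and 15.7% of all genes, and AAGATGG, as in sites of YY1, in 13.7% and 7.28%. CCGGAAG and AAGATGG can share letters, and in the members' promoters they never did. The members' promoters were richer in G and C, with a median of 58.0% against 52.7% over all promoters. These matches describe letters and show no binding.

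The values are FPKM (fragments scaled to transcript length and to the library's mapped fragments), as deposited by the authors. Read counts, and with them depth, are unknown, so no counting error can be given. Total FPKM per library lay between 213116 and 282327, with 485 to 967 loci at 0. The neuronal genes Snap25 (lowest library 95.2 FPKM) and Syt1 (69.6 FPKM) were well above the median locus in every library. Ttr, the marker of choroid plexus, ranged between 7.72 and 4910 FPKM. Run names in the descriptions carry 1 of 4 lane numbers, and lanes and groups overlap little. P-values below measure the spread between these libraries.

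All 72 loci reached the level set for testing, 1 FPKM in 6 or more of the 44 libraries. Their mean levels spanned 2.03 to 1422 FPKM with a median of 139 FPKM, against 4.91 FPKM over the 13009 loci that passed. Of the 72, 47 averaged over 100 FPKM and 52 were among the 500 highest loci of the table. Together they made up between 4.14% and 7.43% of a library's FPKM. The median level was 130 FPKM over large-subunit loci and 147 FPKM over small-subunit loci. FPKM is scaled to length, so these levels are set beside each other below. Libraries still differed in how FPKM moved with transcript length, and reads can be placed on pseudogenes of some members. The order of levels is not corrected for either.

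The highest was Rplp1, an acidic protein of the stalk that recruits elongation factors, at 1422 ± 384 FPKM (SD, n = 44). Rps29, a zinc-binding protein of the small-subunit head, followed at 765 ± 229 FPKM and Rps15 at 746 ± 170 FPKM. Next came Rps23 (532 FPKM), Rpl35 (468 FPKM), Rps21 (389 FPKM), Rpl24 (359 FPKM), Rpl38 (341 FPKM), Rps16 (340 FPKM) and Rplp2 (321 FPKM). Rplp1 lay above Rps29 in all 44 libraries, by 0.90 ± 0.11 on the log2(FPKM + 1) scale (SD). Rps29 lay above Rps15 in 23 of 44, so their order is not resolved. Of the 71 steps between neighbours in this order, 64 were no larger than the SD of the difference within libraries. Protein P1 and its partner P2 sit on the ribosome in equal numbers, while the mean FPKM of their messages was 1422 for Rplp1 and 321 for Rplp2.

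**Figure D1:**
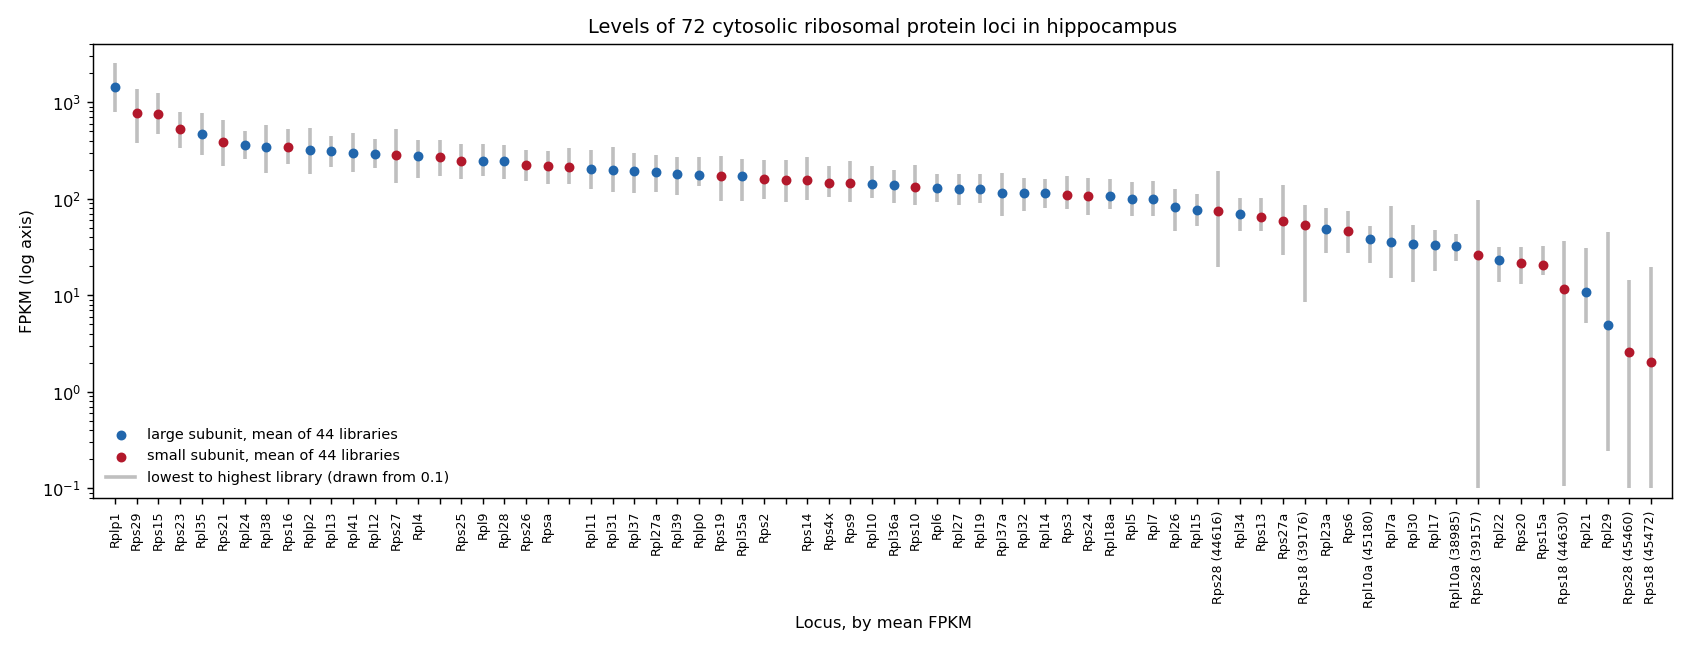
Mean FPKM over 44 libraries (points, log axis) and the range from the lowest to the highest library (grey lines, cut at 0.1 FPKM) of the 72 loci in order of mean, large subunit in blue and small subunit in red. Symbols on several loci carry the locus number, and a few loci carry no label. Rplp1 leads at 1422 FPKM, and the widest ranges belong to Rpl29 and to loci of Rps18 and Rps28.

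The lowest loci were 1 of 3 named Rps18 (2.03 FPKM), 1 of 3 named Rps28 (2.56 FPKM) and Rpl29 (4.88 ± 9.94 FPKM, SD, n = 44), a heparin-binding protein of the large subunit. Of the symbols, 64 stood on 1 locus and 3 on several: Rpl10a on 2, Rps18 on 3 and Rps28 on 3. How the authors' processing shared reads between such copies is not known, so the values of those 8 loci are uncertain. The 2 Rpl10a loci had similar means, at 37.99 and 32.1 FPKM. The Rps28 loci had 74.9, 26.3 and 2.56 FPKM, and the Rps18 loci 53.3, 11.7 and 2.03 FPKM. The lower Rps28 and Rps18 loci were at or near 0 in some libraries and not in others.

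No difference by diet was detected at any age. MR against CD at 5, 15 and 18 months moved the members by medians of -0.04, 0.03 and 0.03 on the log2(FPKM + 1) scale, against medians of -0.02, 0.01 and -0.03 over all loci. No member passed an adjusted p of 0.05 in limma at any of the 3 ages or in their average, and 0% of all loci did. No member reached even an unadjusted p of 0.05 there, while 4.61%, 2.27%, 4.69% and 2.53% of all loci did at 5, 15 and 18 months and in the average. The median SE of a member's difference was between 0.14 and 0.16 at the single ages. For Rplp1 the 95% interval of the MR difference was -0.41 to 0.35 at 5 months, -0.21 to 0.47 at 15 months and -0.32 to 0.39 at 18 months, so changes inside those bounds cannot be told from none. For Rps6 it was -0.46 to 0.19, -0.32 to 0.26 and -0.25 to 0.35 at the same ages.

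The smallest p-values at 5 months belonged to Rpl29, at 1.37 ± 0.68 (SE) with an adjusted p of 0.937 in limma, and Rpl17, at -0.35 ± 0.19. Rpl29 ranged between 0.657 and 45.1 FPKM with a median of 1.85 FPKM in 5M-MR, against 0.784 to 3.22 FPKM with a median of 1.33 FPKM in 5M-CD. The groups overlapped, and the highest 5M-MR library was far above every 5M-CD library. In a fit with lane as a factor this locus alone of the members passed the test in MR against CD, higher at 5 months (3.98, adjusted p = 0.00453 in limma) and lower at 18 months (-4.07, adjusted p = 0.0104). With libraries weighted by their fit, Rpl17 and Rpl31 passed as lower in 5M-MR than in 5M-CD (-0.52 and -0.45, adjusted p = 0.0496 and 0.0412 in limma).

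In mice on MR, some transcripts of ribosomal proteins were higher at both later ages than at 5 months, in calls that several other fits end. At 15 months 22 of the 72 loci passed the test as higher (30.6%) and 0 as lower, where 11.9% of all loci were higher and 6.46% lower. At 18 months 22 were higher (30.6%) and 0 lower, where 15.3% of all loci were higher and 14% lower. The median member lay 0.31 higher at 15 months and 0.32 higher at 18 months, with 65 and 67 of 72 above 0, while the median of all loci was 0.01 and -0.09. Of all loci 50.4% and 43.1% were above 0. The members varied together from library to library, so such counts are not of independent observations. At an unadjusted p of 0.05, 36 and 38 members passed, or 50% and 52.8%, against 34.4% and 42.5% of all loci. Both comparisons share the 5M-MR libraries, and 18 loci passed in both. Among them were Rpl11, Rpl26, Rpl27a, Rpl30, Rpl31, Rpl35, Rpl35a, Rpl36a, Rpl37, Rpl37a, Rpl38, Rpl39, Rplp1, Rps20, Rps21, Rps25 and Rps29. At 18 months 0 members passed in a fit of only the groups compared, and with a library's share of loci without a symbol or of mitochondrial rRNA as a covariate 4 and 0 passed at 15 months and 0 and 0 at 18 months. Counts over all loci in those other fits are not given here. In bulk tissue such a change can be in the RNA of each cell or in the cells sampled, and fewer cells of a type and less RNA per cell cannot be told apart.

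**Figure D2:**
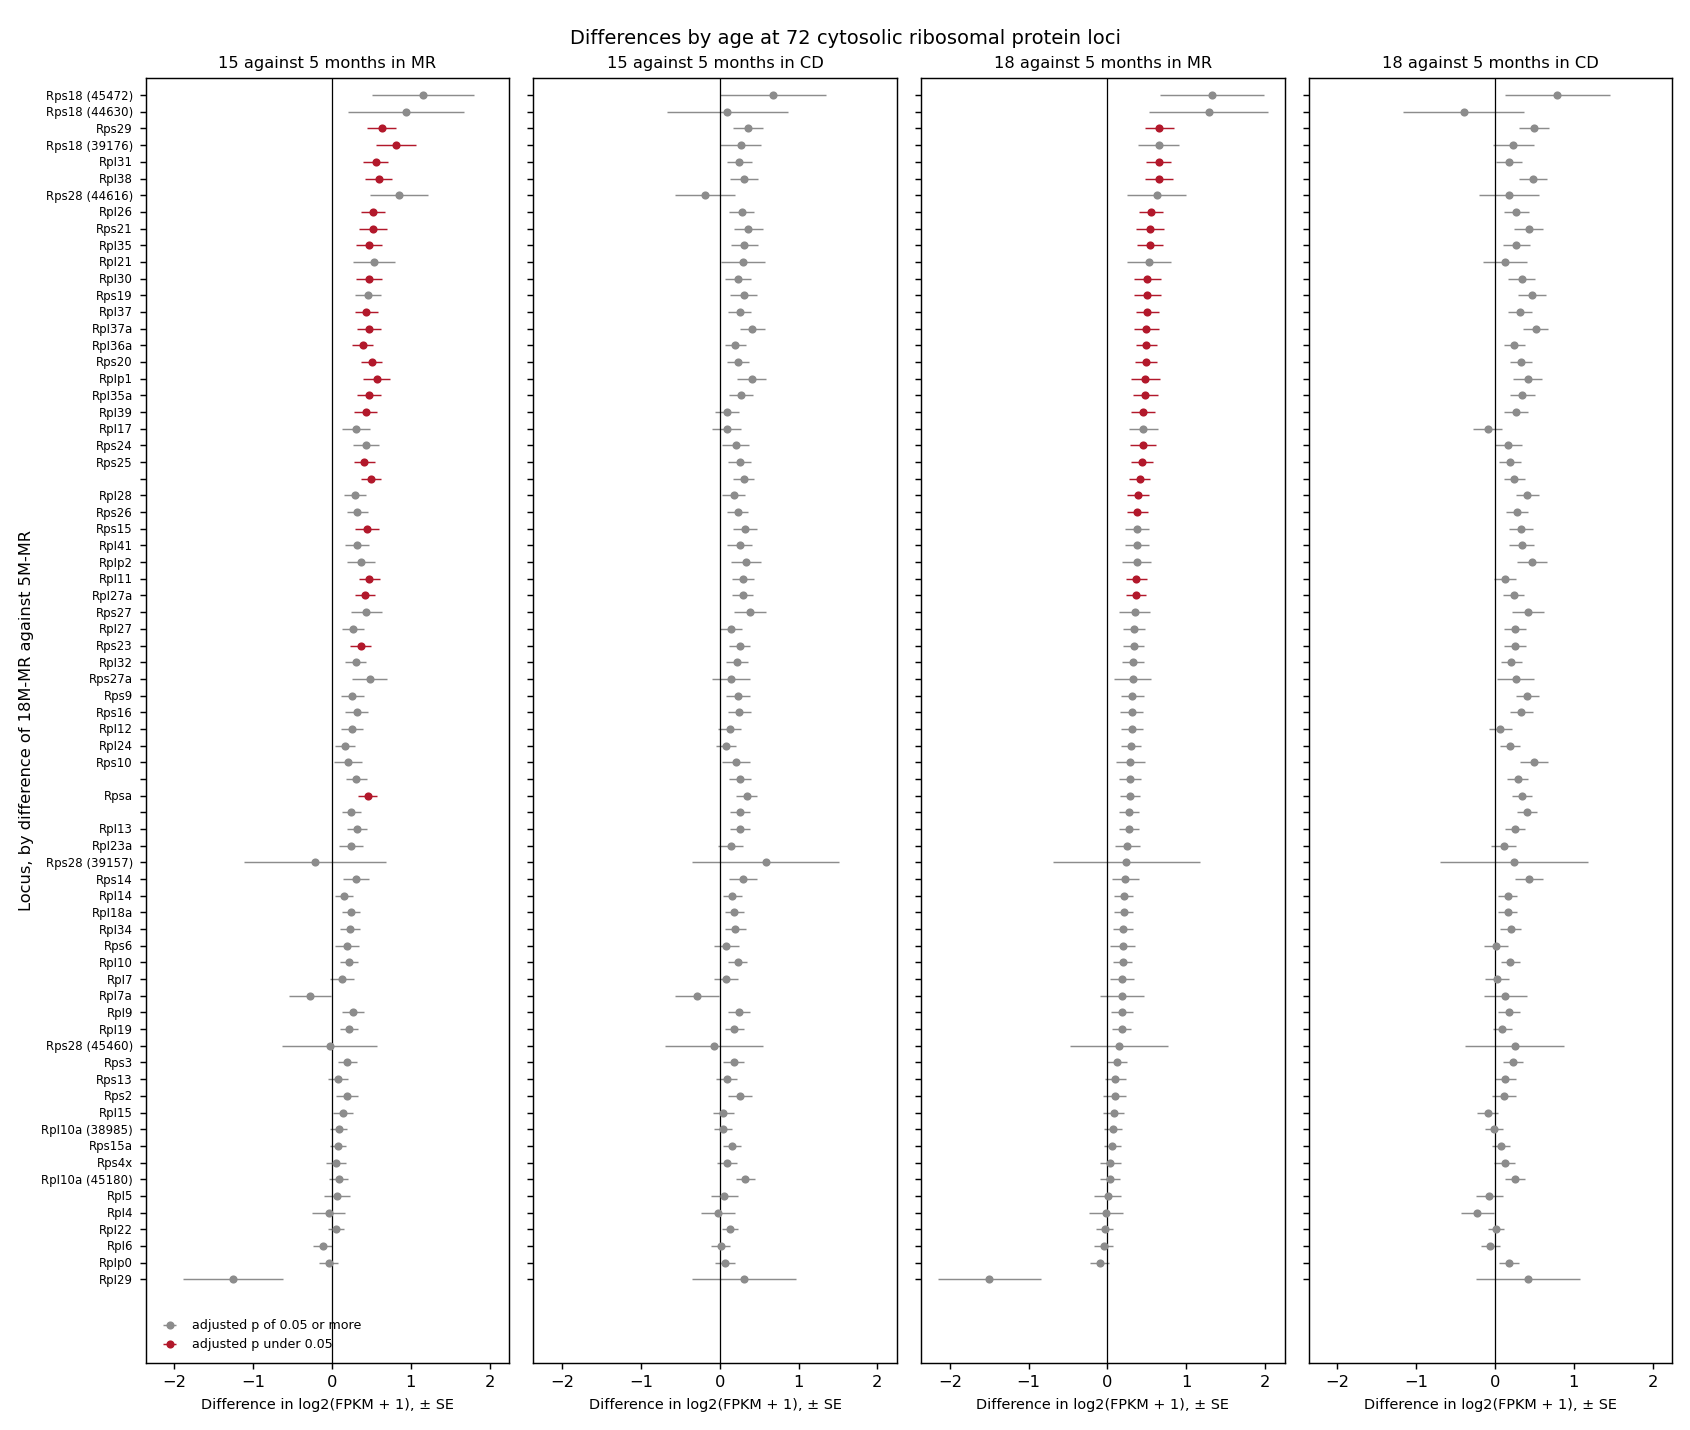
Difference in log2(FPKM + 1) with its SE for each of the 72 loci, at 15 and 18 months against 5 months, MR left of CD at each age, ordered by the difference of 18M-MR against 5M-MR. Red points have an adjusted p under 0.05 in limma: 22 loci in each MR panel, all higher, and 0 in the CD panels, where most points also lie right of 0.

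Among the large-subunit members, Rpl31, at the rim of the tunnel through which new proteins leave the ribosome, had the smallest p at 18 months (gene at chr1:39367842-39371911, plus strand, GENCODE M21 on GRCm38). Its lowest, median and highest FPKM were 116, 135 and 191 in 5M-MR, 153, 215 and 254 in 15M-MR, and 178, 197 and 345 in 18M-MR. All 8 libraries of 15M-MR and all 7 of 18M-MR lay above the 5M-MR mean, though the ranges overlapped. The difference was 0.55 ± 0.16 at 15 months (adjusted p = 0.0150 in limma) and 0.65 ± 0.16 at 18 months (adjusted p = 0.00701 in limma). In CD, Rpl31 had 124, 184 and 219 FPKM at 5 months, 169, 206 and 301 FPKM at 15 months, and 149, 205 and 287 FPKM at 18 months. Its CD differences were 0.25 ± 0.16 and 0.18 ± 0.16 (adjusted p = 0.709 and 0.557 in limma).

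Rpl38, which mouse embryos need for translating a subset of Hox messages, had 184, 235 and 363 FPKM in 5M-MR, 291, 370 and 539 FPKM in 15M-MR, and 220, 409 and 575 FPKM in 18M-MR. It was above the 5M-MR mean in 8 of 8 and 6 of 7 libraries, with differences of 0.59 ± 0.17 and 0.65 ± 0.18 (adjusted p = 0.0166 and 0.0107 in limma). Rpl26, another protein beside the exit tunnel, had 46.5, 56.3 and 80.4 FPKM in 5M-MR, 57.0, 92.4 and 101 FPKM in 15M-MR, and 69.3, 84.4 and 126 FPKM in 18M-MR. It differed by 0.52 ± 0.15 and 0.55 ± 0.15 (adjusted p = 0.0164 and 0.0117 in limma). For both genes the highest 5M-MR library lay above the lowest library of either older group.

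Rpl11 and Rpl5 form a particle with 5S rRNA that, when ribosome assembly stalls, binds the p53 ligase Mdm2. Rpl11 had 127, 151 and 216 FPKM in 5M-MR, 162, 230 and 268 FPKM in 15M-MR, and 171, 201 and 286 FPKM in 18M-MR. Rpl11 rose at both ages, by 0.47 ± 0.13 and 0.37 ± 0.14 (adjusted p = 0.0153 and 0.0410 in limma). Rpl5 had 70.6, 82.1 and 131 FPKM in 5M-MR, 70.8, 108 and 121 FPKM in 15M-MR, and 66.3, 106 and 112 FPKM in 18M-MR. Its differences were 0.06 ± 0.17 and 0.00 ± 0.17 (adjusted p = 0.815 and 0.995 in limma). Whether Rpl11 and Rpl5 differ from each other was not tested.

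Of the stalk proteins 1 of 3 passed the test. Rplp1 had 794, 1081 and 1780 FPKM in 5M-MR, 1213, 1567 and 2523 FPKM in 15M-MR, and 1000, 1500.0 and 2174 FPKM in 18M-MR, and rose by 0.57 ± 0.18 and 0.48 ± 0.18 (adjusted p = 0.0240 and 0.0416 in limma). Rplp2 had 181, 279 and 421 FPKM in 5M-MR, 255, 317 and 519 FPKM in 15M-MR, and 203, 392 and 484 FPKM in 18M-MR. Its differences, 0.37 ± 0.18 and 0.37 ± 0.19, missed the threshold (adjusted p = 0.143 and 0.123 in limma). Rplp0, which anchors both to the ribosome and often serves as a reference gene in PCR, had 145, 180 and 263 FPKM in 5M-MR, 144, 180 and 224 FPKM in 15M-MR, and 147, 169 and 194 FPKM in 18M-MR. Its differences were -0.04 ± 0.12 and -0.10 ± 0.12 (adjusted p = 0.827 and 0.563 in limma). Their 95% intervals were -0.28 to 0.20 and -0.34 to 0.15. Differences between the stalk genes were not tested.

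On the small subunit, Rps20, a protein of the head, had 12.95, 14.9 and 22.1 FPKM in 5M-MR, 17.8, 22.5 and 29.6 FPKM in 15M-MR, and 17.7, 21.3 and 30.4 FPKM in 18M-MR. It rose by 0.50 ± 0.14 and 0.49 ± 0.14 (adjusted p = 0.0113 and 0.0122 in limma). All 8 libraries of 15M-MR and all 7 of 18M-MR lay above the 5M-MR mean, and the ranges overlapped. Rps29 had 374, 557 and 783 FPKM in 5M-MR, 610, 846 and 1357 FPKM in 15M-MR, and 536, 894 and 1294 FPKM in 18M-MR, and rose by 0.63 ± 0.18 and 0.66 ± 0.19 (adjusted p = 0.0165 and 0.0126 in limma).

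Rpsa, the laminin receptor precursor that sits on the back of the small subunit, had 141, 170 and 258 FPKM in 5M-MR, 198, 239 and 302 FPKM in 15M-MR, and 186, 201 and 305 FPKM in 18M-MR. It passed the test at 15 months, at 0.45 ± 0.12 (adjusted p = 0.0127 in limma), and not at 18 months, at 0.29 ± 0.13 (adjusted p = 0.0830 in limma). Rps6 had 33.3, 38.02 and 57.98 FPKM in 5M-MR, 33.9, 49.7 and 56.5 FPKM in 15M-MR, and 38.8, 47.4 and 54.6 FPKM in 18M-MR. Its differences of 0.19 ± 0.15 at both ages did not pass (adjusted p = 0.379 and 0.348 in limma). Rps27a, made as a fusion with ubiquitin, had 26.1, 42.1 and 59.2 FPKM in 5M-MR, 39.8, 60.8 and 97.4 FPKM in 15M-MR, and 31.1, 57.7 and 86.3 FPKM in 18M-MR. Its differences were 0.48 ± 0.23 and 0.32 ± 0.24 (adjusted p = 0.132 and 0.305 in limma).

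The remaining loci past the test were higher by 0.36 to 0.81 at 15 months and by 0.36 to 0.54 at 18 months. Rps15, Rps18, Rps23 and Rpsa passed at 15 months alone, and Rps19, Rps24, Rps26 and Rpl28 at 18 months alone, without a test of the difference between the ages. The largest difference past the test was that of the best covered Rps18 locus at 15 months, 0.81 ± 0.25 (adjusted p = 0.0232 in limma). It rests on 5M-MR 10, which was low at this locus and high at another Rps18 locus, and without that library it was 0.50 (adjusted p = 0.0811 in limma). The largest negative values belonged to Rpl29, at -1.26 ± 0.64 and -1.50 ± 0.66 (adjusted p = 0.154 and 0.0771 in limma). Rpl29 had 0.657, 1.85 and 45.1 FPKM in 5M-MR, 0.641, 1.02 and 13.8 FPKM in 15M-MR, and 0.466, 1.37 and 2.09 FPKM in 18M-MR.

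Both subunits took part. Of the large-subunit loci 13 of 41 passed at 15 months and 14 of 41 at 18 months, with medians of 0.27 and 0.31. Of the small-subunit loci 9 of 31 and 8 of 31 passed, with medians of 0.36 and 0.32. From 15 to 18 months on MR no member passed (0.0999% of all loci higher) and none reached an unadjusted p of 0.05 (7.41% of all loci). The median difference was 0.01 and the 3 smallest p-values belonged to Rpl7a, at 0.46 ± 0.27, Rpsa, at -0.17 ± 0.12, and Rpl24, at 0.14 ± 0.12.

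In CD the differences by age pointed the same way without passing the test. At 15 against 5 months the median member was 0.23 higher and 68 of 72 were above 0, against a median of 0.03 over all loci. At 18 against 5 months it was 0.24 higher with 65 of 72 above 0, against -0.02 over all loci. Of all loci 54.1% and 47.7% were above 0 at 15 and 18 months. No member passed the adjusted threshold at either age (0.0769% and 0.131% of all loci were higher). At an unadjusted p of 0.05, 9 members (12.5%) and 23 members (31.9%) passed, all of them higher, against 8.23% and 16.8% of all loci. At 15 months Rpsa had 0.34 ± 0.13 (adjusted p = 0.464 in limma). At 18 months Rpl37a had 0.52 ± 0.16 and Rpl28 0.41 ± 0.14 (adjusted p = 0.152 and 0.212 in limma), each with 8 of 8 18M-CD libraries above the 5M-CD mean. At 18 against 15 months no member passed (0.0538% of all loci higher), none reached an unadjusted p of 0.05 (6.62% of all loci), and the median was 0.00.

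The age difference in MR was not shown to differ from that in CD. The test of that difference is the interaction, the MR difference at the later age minus that at 5 months. Its median over the members was 0.09 at 15 months and 0.08 at 18 months, and no member passed the adjusted threshold (0% and 0.00769% of all loci higher). At an unadjusted p of 0.05 no member passed at 15 months (3.49% of all loci) and 3 passed at 18 months (4.17%, against 7.13% of all loci). Those were Rpl17, at 0.55 ± 0.26, Rpl29, at -1.92 ± 0.93, and Rpl31, at 0.47 ± 0.23, with adjusted p of 0.683, 0.6998 and 0.6998 in limma. Between 18 and 15 months no member passed by adjusted p (0% of all loci) or unadjusted p (2.42% of all loci).

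No member separated the ages completely. A locus with every library of the later age above every library of 5 months was found 0 times among the 72 in each of the 4 comparisons with 5 months. Over all loci that share was 0.277% at 15 months and 0.3% at 18 months in CD, and 6.2% at 15 months and 0.154% at 18 months in MR.

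Libraries of 1 group varied widely. A library's median over the 72 loci, each centred on its own mean log2(FPKM + 1), was -0.52 to 0.30 in 5M-MR with a median of -0.29, -0.29 to 0.33 in 15M-MR with a median of 0.14, and -0.20 to 0.49 in 18M-MR with a median of 0.04. In CD it was -0.40 to -0.04 at 5 months with a median of -0.15, -0.11 to 0.53 at 15 months with a median of -0.01, and -0.26 to 0.52 at 18 months with a median of 0.05. The pooled SD within groups was 0.23, beside age differences of 0.31 and 0.32 in MR. All groups overlapped. The count of members past the test moved with single libraries accordingly. Leaving out 1 library at a time gave between 8 loci (without 5M-MR 6) and 33 loci (without 5M-MR 4) at 15 months, and between 7 loci (without 18M-MR 1 or 18M-MR 2) and 37 loci (without 5M-MR 4) at 18 months. Calls over all loci moved too, with 911 and 1328 higher in those fits at 15 months, against 1547 with all libraries. At 18 months 1061, 439 and 1714 were higher without 18M-MR 1, 18M-MR 2 and 5M-MR 4, against 1995 with all libraries. Libraries 5M-MR 8 and 15M-MR 5 also mattered, with 9 and 10 loci at 15 months without them, and 5M-MR 8 and 5M-MR 6 at 18 months, with 9 and 12. Over all loci 918 and 961 were higher in those fits at 15 months, and 1426 and 1410 at 18 months. Rpl11, Rpl26, Rpl31, Rpl38, Rps20 and Rpsa passed at 15 months in each of 15 such fits, and Rpl26, Rpl31, Rpl36a, Rpl37, Rpl38, Rps20 and Rps29 at 18 months in each of 14.

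**Figure D3:**
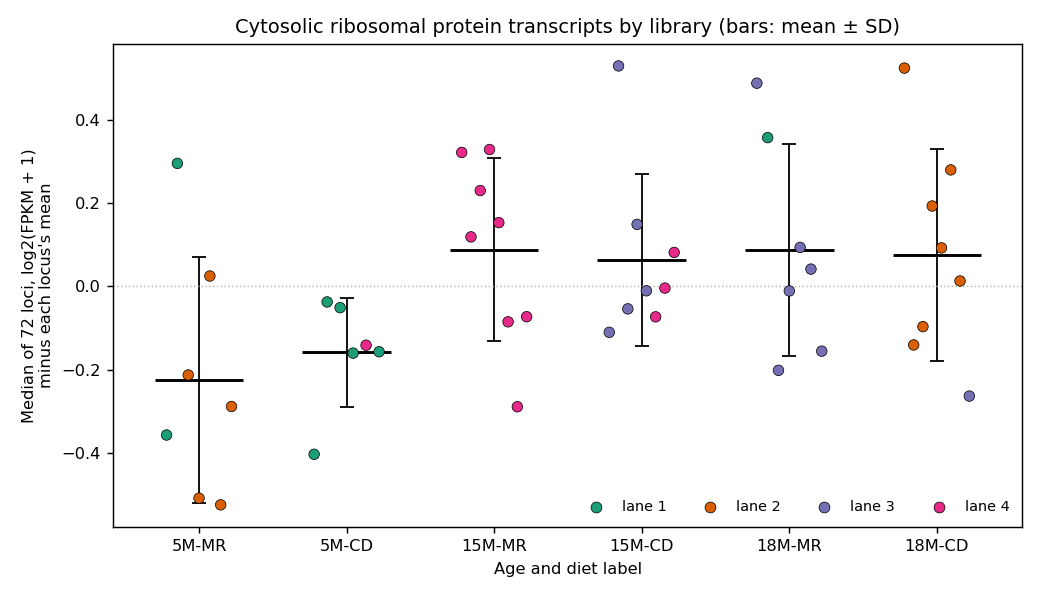
Median of the 72 loci in each of 44 libraries, as log2(FPKM + 1) minus the mean of each locus, by age and diet label, coloured by lane, with the group mean and SD as bars. The 5-month groups have the lowest means, -0.22 in 5M-MR and -0.16 in 5M-CD, and every group overlaps every other.

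The members' level moved with properties of the libraries. Over the other loci with a known transcript length, the slope of centred log2(FPKM + 1) on log2 length was computed in each library, so that a negative slope means short transcripts were relatively high. The members' median had a Pearson r of -0.87 and a Spearman rho of -0.86 with that slope over 44 libraries, -0.84 without the 2 most extreme libraries, and -0.84 after group means were taken out. The slope was 0.003 to 0.15 in 5M-MR with a median of 0.10, -0.11 to 0.07 in 15M-MR with a median of -0.04, and -0.15 to 0.04 in 18M-MR with a median of -0.03. Both values come from the same libraries and share their depth and scaling. The members' median also had a Pearson r of 0.88 with the library's total FPKM, of which the members are a part, and 0.67 with the number of loci at 0. The members are short, with a median transcript length of 680 bases against 2040 bases over other loci.

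**Figure D4:**
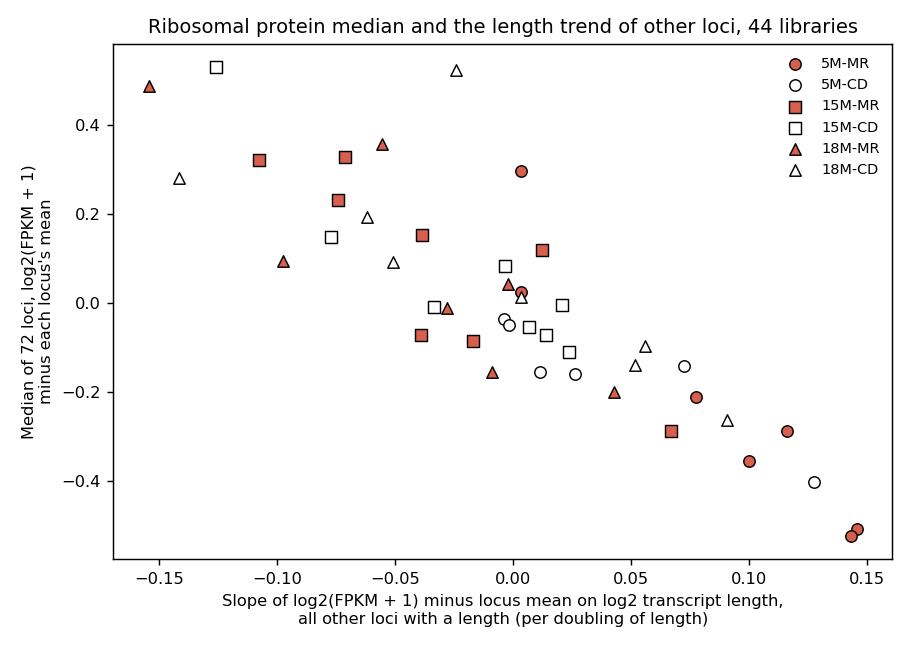
Each point is 1 of 44 libraries, MR filled and CD open, circles at 5, squares at 15 and triangles at 18 months. The vertical axis is the median of the 72 loci (log2(FPKM + 1) minus locus mean) and the horizontal axis the slope of the other loci on log2 transcript length. The points fall along a line with r of -0.87, with most 5M-MR libraries at the lower right.

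Members had a larger median difference than other loci of their length class, in each of the 3 classes given here. The 2 members between 2000 and 4000 bases had a median of 0.28 at 15 months, above that of the members in the class below. Among loci under 500 bases, the median MR difference at 15 months was 0.50 for 11 members and 0.28 for 279 other loci. Between 500 and 1000 bases it was 0.30 for 47 members and 0.06 for 1601 others, and between 1000 and 2000 bases 0.22 for 12 members and -0.07 for 2340 others. At 18 months the same classes gave 0.48 and 0.24, 0.32 and -0.04, and 0.25 and -0.17. Within the members, shorter transcripts had larger differences, with a Spearman rho of difference and length of -0.42 at 15 months and -0.48 at 18 months, beside -0.31 and -0.33 over 8633 other loci. These are correlations across genes, which are not independent replicates. With the length trend of the other loci removed from each library, 7 members passed at 15 months and 21 at 18 months, and their medians were 0.22 and 0.32. That removal left the median of all 8705 loci with a length at -0.00 at 18 months, against -0.23 for the same loci before it. In a fit of those 8705 loci with the trend left in, 16 of the 22 called loci kept their call at 15 months. At 18 months 18 of 22 kept it there. Counts over all loci in these 2 fits are not given here, so the changes are not shown to be particular to the members.

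The share of FPKM in loci without a symbol and in the mitochondrial rRNA loci was also higher at the later ages on MR, with overlap. Loci without a symbol held 3.30% to 4.90% in 5M-MR, 4.62% to 8.29% in 15M-MR and 4.04% to 12% in 18M-MR. Loci with mitochondrial rRNA, 1 of which also spans mitochondrial coding genes, held 2.97% to 5.53% in 5M-MR, 5.34% to 7.87% in 15M-MR and 3.501% to 11.5% in 18M-MR. The members' median had a Pearson r of 0.43 and a Spearman rho of 0.42 with the first share, and 0.52 and 0.52 with the second, over 44 libraries. With the first share as a covariate 4 members passed at 15 months and 0 at 18 months, with medians of 0.25 and 0.18. With the second share 0 passed at either age, with medians of 0.23 and 0.14. Without the 6 libraries that had over 8% of FPKM in loci without a symbol, 18 passed at 15 months and 0 at 18 months, with medians of 0.26 and 0.17. The medians stayed above 0 in all of these fits. Counts over all loci in them are not given here, so the losses are not shown to be particular to the members. The part of RNA quality in the result was not tested beyond them.

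No within-lane value exists for 15M-MR against 5M-MR, which share no lane. With lane as a factor, which takes lane differences from every group that spans lanes, the median difference was 0.50 at 15 months and 0.48 at 18 months. In that fit none of the 22 loci kept its call at 15 months, where Rpl29 alone passed, as lower (-4.05, adjusted p = 0.0326 in limma), and 17 of 22 kept it at 18 months. Counts over all loci in the lane fit are not given here. Lane 1 held 1 library of 18M-MR and 2 of 5M-MR, with a median member difference of 0.39 and 61 of 72 above 0. Lane 4 held 3 libraries of 15M-CD and 1 of 5M-CD, with a median of 0.16 and 63 of 72 above 0. Lane 3 held 1 library of 18M-CD and 5 of 15M-CD, with a median of -0.33 and 5 of 72 above 0. For diet, MR against CD within a lane gave 0.13 at 5 months (lane 1, 2 and 5 libraries, 54 of 72 above 0), 0.08 at 15 months (lane 4, 8 and 3 libraries, 66 of 72) and 0.32 at 18 months (lane 3, 6 and 1 libraries, 67 of 72). The 5-month value has the opposite sign to the -0.04 over all libraries. The lanes with 1 library in a group give no spread for it, and 18M-MR and 15M-MR, as well as 18M-CD and 5M-CD, share none.

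Within groups the members varied together from library to library. After group means were taken out, a member's Pearson r with the median of the other members had a median of 0.84 over the 72, and 42 of them (58.3%) exceeded 0.8. Of the 12937 other loci 0.982% exceeded 0.8 with the members' median, and their median r was -0.01. The pseudogenes of ribosomal proteins, among those other loci, had a median r of 0.77, and 37.3% of the 59 exceeded 0.8. The members most like the rest were Rpl27a (0.98), Rpl13 (0.98), Rpsa (0.97) and Rps23 (0.97). The least like were Rpl29 (0.14), 2 loci of Rps18 (0.22 and 0.37), 2 of Rps28 (0.22 and 0.32) and, among symbols on 1 locus, Rpl4 (0.27), Rpl7a (0.50) and Rpl21 (0.505). The points are libraries that share depth and scaling, and the part of these in r was not tested. Close matches outside the list were Pfdn5 (0.965), a subunit of the chaperone prefoldin, and Fau (0.93), a fusion of a ubiquitin-like domain with a ribosomal protein. Uqcc2, Ndufb9, Fis1, Polr2f, Sod1, Grcc10 and Ndufb11 followed at 0.92 to 0.88.

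**Figure D5:**
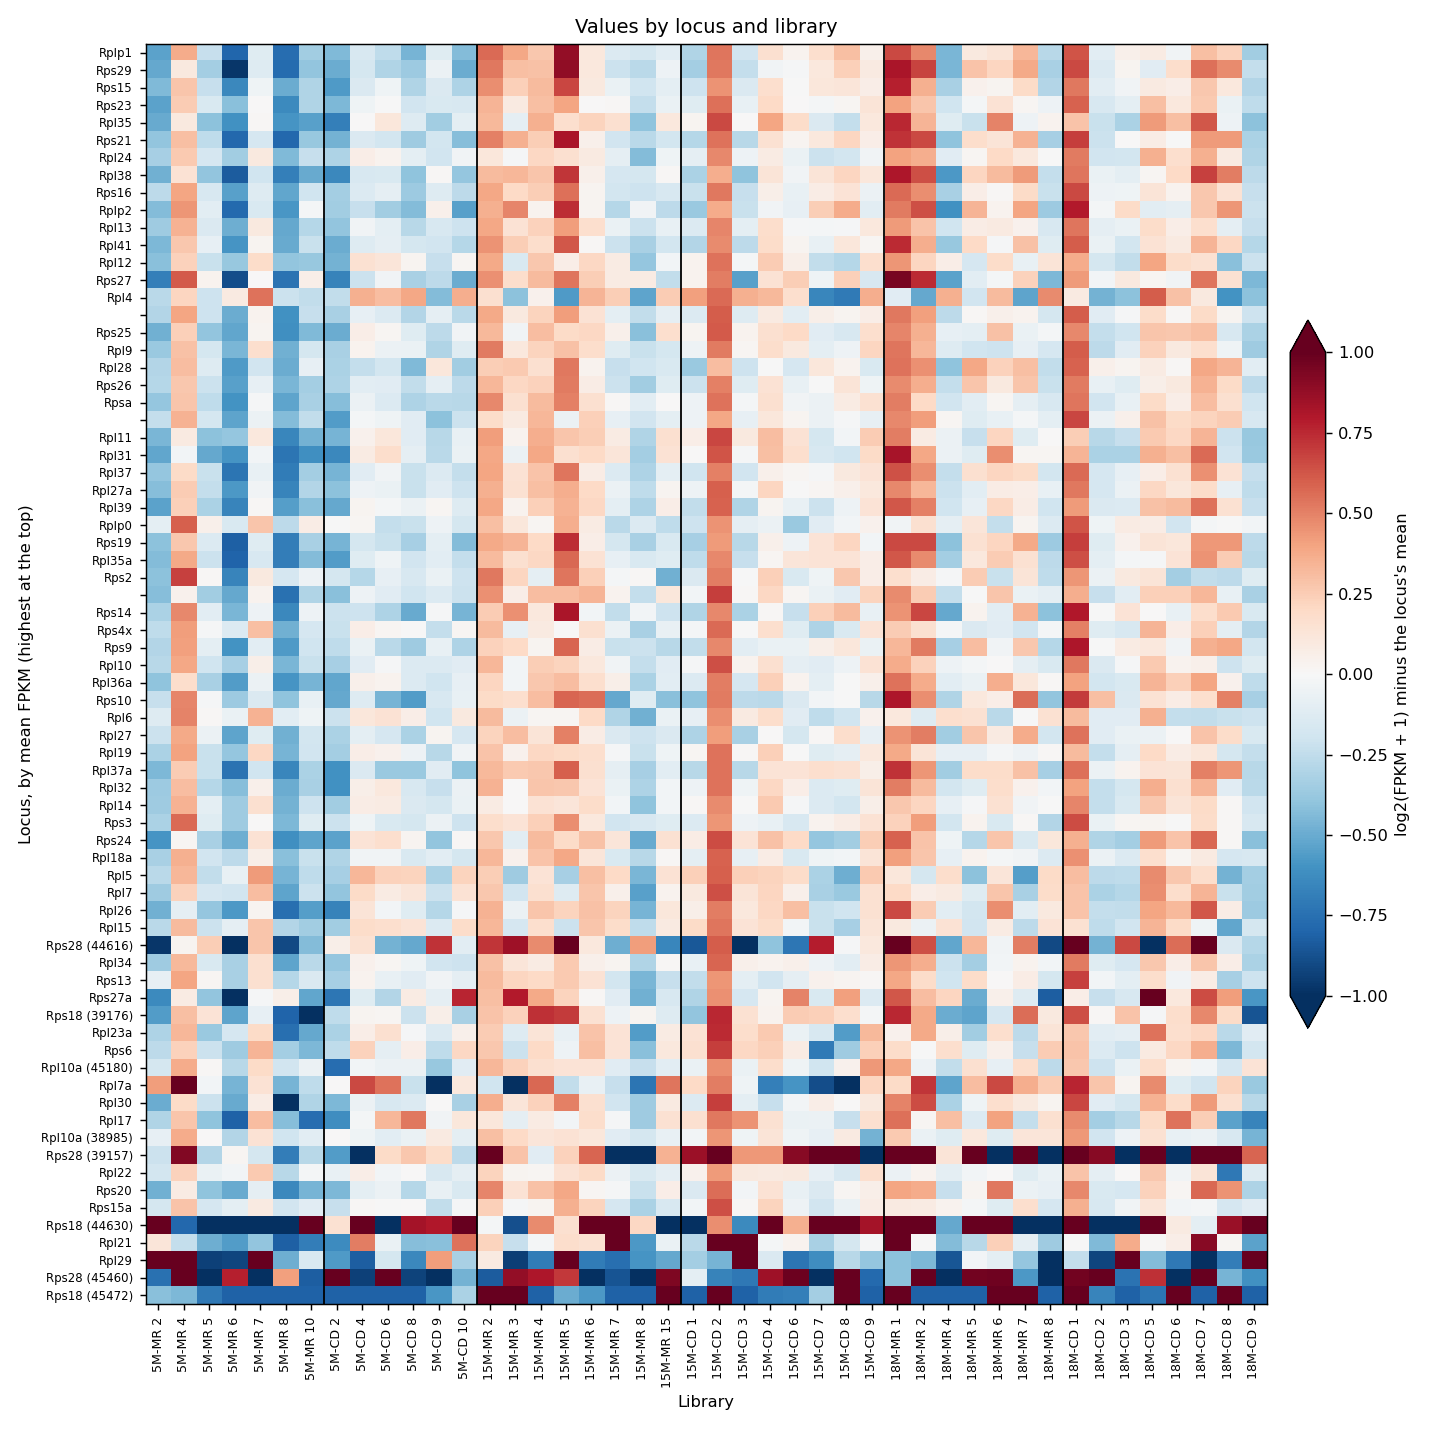
Log2(FPKM + 1) minus the mean of the locus (colour, clipped at 1 and -1) for the 72 loci, in order of mean FPKM with the highest at the top, in 44 libraries by group. Most of a column is 1 colour in libraries such as 15M-CD 2 and 18M-CD 1 (high) and 5M-MR 6 and 5M-MR 8 (low), while Rpl29, Rpl4, Rpl7a and the extra loci of Rps18 and Rps28 go their own way.

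Processed pseudogenes of these genes carry near-copies of the messages, and reads can be placed on either. The table holds 59 loci named as such pseudogenes, all of which passed the filter. Their mean FPKM summed to 1961, or 14.5% of the 13570 FPKM of the members. Of the 48 whose parent gene stands on 1 locus, the median had 19.6% of the parent's level and 5 had more than the parent, among them Rpl17-ps3 (108 FPKM, against 33.3 FPKM for Rpl17) and Rps27a-ps2 (103 FPKM, against 58.9 FPKM for Rps27a). Their r with the parent within groups had a median of 0.71 and ran between -0.47 and 0.97. At 15 against 5 months on MR 15 of 59 pseudogenes were higher and 0 lower, with a median of 0.35, and at 18 months 19 were higher and 0 lower, with a median of 0.36. Over all loci 11.9% and 15.3% were higher, with medians of 0.01 and -0.09. Rpl38-ps2 rose by 0.62 ± 0.16 and 0.63 ± 0.16 (adjusted p = 0.00792 and 0.00782 in limma), beside 0.59 and 0.65 for Rpl38.

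Some genes close to the list were also higher at the later ages on MR. Of 12 loci of paralogs and ubiquitin fusions tested, 2 were higher at 15 months on MR and 3 at 18 months, and 0 were lower. Over all loci 11.9% and 15.3% were higher, and a difference from that share was not tested. The medians were 0.21 and 0.08, with 10 and 7 of the 12 above 0. Rpl36al, a retrogene copy related to Rpl36a, had 0.45 ± 0.15 and 0.43 ± 0.15 (adjusted p = 0.0306 and 0.0302 in limma). Fau, which makes S30, had 0.35 ± 0.13 (adjusted p = 0.0592) and 0.38 ± 0.14 (adjusted p = 0.0358 in limma). Rps3a1, the small-subunit gene that the naming rule misses, averaged 343 FPKM and had 0.09 ± 0.14 at 15 months (adjusted p = 0.681 in limma). The polyubiquitin gene Ubb had -0.30 ± 0.15 at 18 months (adjusted p = 0.124 in limma). Of the loci that name a ribosomal protein beside other genes, the one of Colec11 and Rps7 averaged 176, 212 and 218 FPKM in 5M-MR, 15M-MR and 18M-MR, and the one of Rpl3 and Gm31134 averaged 127, 106 and 102 FPKM.

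Over all loci 6.46% were lower at 15 months on MR and 14% at 18 months, and 11.9% and 15.3% were higher, which is the background for the lists that follow. Of 22 further TOP messages and translation factors tested, 0 were higher at either age on MR, and 4 were lower at 15 months and 5 at 18 months, with medians of -0.11 and -0.12. Eif4b, a cofactor of the helicase that opens the 5′ end of messages, fell by 0.58 ± 0.12 and 0.60 ± 0.12 (adjusted p = 0.00192 and 0.00226 in limma). Eef2, the translocation factor whose message is itself of the TOP class, fell by 0.31 ± 0.11 and 0.41 ± 0.11 (adjusted p = 0.0372 and 0.00972 in limma). Eif3l, a subunit of initiation factor eIF3, fell by 0.38 ± 0.09 at both ages (adjusted p = 0.00669 and 0.00673 in limma).

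Ribosome biogenesis genes, which make and process rRNA, had 32 members tested. Of these 1 was higher and 6 lower at 15 months, and 2 were higher and 9 lower at 18 months, with medians of -0.15 and -0.18. Nolc1 and Ncl, both nucleolar proteins, had -0.47 ± 0.12 and -0.49 ± 0.13 at 15 months (adjusted p = 0.00759 and 0.0101 in limma). Ubtf, the factor that opens rDNA for polymerase I, had -0.64 ± 0.20 (adjusted p = 0.0225 in limma). Dkc1, which modifies rRNA, was higher at 18 months, at 0.49 ± 0.13 (adjusted p = 0.00782 in limma).

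Of 24 genes of mTORC1 and amino acid sensing tested, 0 were higher and 5 lower at each age on MR, with medians of -0.17 and -0.32. Mtor, the kinase itself, fell by 0.38 ± 0.12 and 0.53 ± 0.12 (adjusted p = 0.0237 and 0.00443 in limma). Mat2a, which makes S-adenosylmethionine from methionine, stands on 2 loci. At 1 of these it fell by 0.70 ± 0.18 and 1.01 ± 0.18 (adjusted p = 0.00791 and 0.00175 in limma). Ddit4, an inhibitor of mTORC1, fell by 0.68 ± 0.20 and 0.86 ± 0.20 (adjusted p = 0.0162 and 0.00519 in limma). The genes that fell thus include an activator, an inhibitor and a metabolic enzyme. The mitochondrial ribosomal proteins, which serve a separate ribosome, had 66 loci tested, of which 13 were higher and 0 lower at 15 months and 4 higher and 3 lower at 18 months, with medians of 0.17 and 0.04. The 4 of 66 higher at 18 months are a smaller share than over all loci. Their r with the cytosolic members within groups had a median of 0.38. In CD no gene of any of these lists passed the test.

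Some markers of cell types passed the test on MR over the same ages. None passed in CD or in the test of the MR effect between ages, so a difference between the diets is not shown. Of 5 microglial markers 2 were higher at 15 months, Tmem119 at 0.52 ± 0.12 and C1qa at 0.46 ± 0.16, and 1 at 18 months, C1qa at 0.47 ± 0.16 (adjusted p = 0.00623, 0.0370 and 0.0291 in limma). With or without passing, 4 of the 5 lay above 0 at 15 months and only 3 of the 5 at 18 months. The 5 microglial markers summed to 51.8 to 79.8 FPKM in 5M-MR, 67.2 to 122 FPKM in 15M-MR and 60.9 to 126 FPKM in 18M-MR. In CD they summed to 56.2 to 73.4, 58.0 to 107.5 and 60.6 to 100.6 FPKM at the same ages. The median microglial difference from 5 months was 0.52 and 0.26 on MR, and 0.01 and 0.18 in CD. Of 5 neuronal markers 0 passed at 15 months and 2 were lower at 18 months, Syt1 at -0.69 ± 0.16 and Slc17a7 at -0.63 ± 0.21. At each age 1 of the 5 lay above 0. The neuronal markers summed to 904 to 1104 FPKM in 5M-MR, 759 to 978 FPKM in 15M-MR and 440 to 955 FPKM in 18M-MR. In CD they summed to 807 to 1009, 747 to 926 and 423 to 973 FPKM at the same ages. The median neuronal difference from 5 months was -0.32 and -0.45 on MR, and -0.10 and -0.36 in CD. Of 4 markers of the CA fields 1 was lower at 15 months and 2 at 18 months, and of 3 dentate granule cell markers 0 and 1. No marker of astrocytes, oligodendrocytes, endothelium, choroid plexus, meninges or erythrocytes passed. For meninges 1 of 3 listed markers was tested and for erythrocytes 1 of 5, with none of the listed globins, so these types are barely covered. No listed marker of ependyma was tested. The part of these cell types in the ribosomal protein result was not tested.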

How the data were processed

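Hippocampal RNA of 44 mice was sequenced by a standard BGI-500 protocol, per the labels, which do not state how rRNA was removed. The values are FPKM made and deposited by the authors in 1 table. Per the submitters' processing notes, Trimmomatic 0.38, HISAT2 and StringTie 1.3.4d were used with build GRCm38.p6; no strand setting is given, so overlapping antisense genes cannot be told apart.

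Here log2(FPKM + 1) of 13009 loci (at least 1 FPKM in at least 6 libraries; 209 left out) went into limma 3.58.1 under R 4.3.3, using 6 group means, 38 residual degrees of freedom and a trended prior. P-values are 2-sided, adjusted by Benjamini-Hochberg over all loci of each of 13 comparisons. The fold scale understates changes of low loci. The fit was tested on simulated data in which every locus varied independently. The members vary together, so that test does not cover false calls in such a set. Genes were named by level, smallest p, covariation, known roles and copy number. The members and lists were chosen with earlier results of these data known. Transcript lengths and gene positions are from GENCODE M21, promoters from RefSeq. Python 3.11.15, pandas 2.3.3, SciPy 1.17.1 and matplotlib 3.10.9 were used. Mice were treated as unpaired. Libraries with the same number in different groups had correlations of deviations of -0.42 to 0.27, which show no clear pairing and cannot exclude one. Some genes of the set are counted but not reported here by name.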

Additional observations from a re-analysis of the deposited data

Results flagged for a closer look

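In 10 of 102 groups of 4 to 10 libraries examined, 1 library lay far from the others of its group. A single such check flags about 1 in 20 by chance. The 102 checks share libraries and the members varied together, so they are not independent and no excess over chance is shown. Library 15M-CD 2 accounts for 5 of the 10. Its median over the members was 0.5291, with the next library of 15M-CD at 0.15. It had 310.5 FPKM of Rpsa (next 238.4), 269.1 FPKM of Rpl37 (next 208.7), 237.1 FPKM of Rplp0 (next 179.0) and 31.17 FPKM of Rps20 (next 23.22). Library 18M-CD 1 had 269.4 FPKM of Rplp0, with the next of 18M-CD at 183.8 FPKM. Library 5M-CD 2 had the lowest median over the members of its group, -0.4025, with the next at -0.16. Rpl29 stood apart in 3 groups, with 13.75 FPKM in 15M-MR 5 (next 2.363), 18.11 FPKM in 15M-CD 3 (next 1.856) and 36.09 FPKM in 18M-CD 9 (next 6.828).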

How the results depend on the processing

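The median differences of the members kept their direction in every alternative run for the MR age comparisons, lying 0.14 to 0.50 above 5 months and 0.255 to 0.42 when 1 library was left out. The count past the test was less stable. Against 22 at each age, 15 against 5 months on MR gave 43 with library weights, 7 with the length trend removed, 4 with the share of loci without a symbol as a covariate, 0 with the mitochondrial rRNA share and 1 with lane. The length fit holds only loci with a length. In those loci with the trend left in, 16 of the 22 kept their call at 15 months. The other age, 18 against 5 months, gave 40 after quantile normalization, and 0 in a fit of only the groups compared, with either share as a covariate, or without 6 libraries over 8% in loci without a symbol. Counts over all loci in these alternative fits are not given here. A rise or fall in the members' count is therefore not shown to be particular to the members. Leaving out 1 library gave 8 to 33 and 7 to 37. Besides those given with the results, 15 months without 5M-MR 2 or 5M-MR 10 gave 13, without 15M-MR 2 gave 14 and without 15M-MR 4 gave 12, and 18 months without 18M-MR 4 gave 34. Over all loci 1273, 1338, 1590, 1156 and 2569 were higher in those fits, in the same order. With a replicate block the counts were 13 and 9. Whether equal numbers mark related mice is not known. In CD, 18 against 5 months gave 1 after quantile normalization and 4 (Rpl28, Rpl37a, Rplp2 and Rps14) with library weights. MR against CD at 5 months gave 2 with library weights. With lane as a factor, MR against CD at 5 and at 18 months, 18 against 15 months in CD, and the MR effect at 18 against 5 months gave 1 each, always Rpl29. The causes were not tested. The fits with the mitochondrial share, without 6 libraries, on members with 1 locus and on loci with a length were added after the data were seen. Other pseudocounts and filters gave 22 or 23. No called value changed sign. Medians near 0 did when 1 library was left out, with -0.13 to 0.01, -0.01 to 0.09 and -0.05 to 0.08 for MR against CD at 5, 15 and 18 months. Without read counts, no counting error can be given for low loci such as Rpl29.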
